A study of Homo sapiens with 6 samples.

Results

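The 10 genes that code for myeloma surface antigens used, or proposed, as targets of antibodies and engineered T cells were followed here. These genes were chosen by symbol, with earlier results of these data known. They were TNFRSF17, GPRC5D, SLAMF7, CD38, SDC1, LY9, CD48, CD47, CD46 and CD86. All 10 were among the 21850 genes of the count table, and all 10 were among the 13971 genes that passed the filter on low counts and were tested. RNA was sequenced from the human myeloma cell line MM.1S on day 3 after lentiviral infection with a short hairpin RNA (shRNA) against PRKCN (shPRKCN, 3 libraries) or with a scramble shRNA (shNT, 3 libraries). PRKCN is an older symbol of PRKD3, a serine/threonine kinase of the protein kinase D family, and the comparison asks how its depletion changes the transcriptome of these cells. The labels give the shNT cells as wild type, and both groups share the cell line and the viral infection. The 3 shPRKCN libraries carry the same construct name, so effects of that hairpin on other transcripts cannot be told apart from loss of PRKCN. The labels do not say that libraries of a group came from separate cultures, and p-values then measure only the spread between these samples, which may be technical.

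Surface antigens are proteins on the outside of the plasma cell that a drug can reach without entering it. BCMA (the product of TNFRSF17), GPRC5D, SLAMF7 and CD38 are targets of approved antibodies, bispecific antibodies or chimeric antigen receptor T cells in myeloma, and loss of an antigen from the cell is a known route of escape from such drugs. SDC1 (CD138) is the surface proteoglycan by which plasma cells are recognised, LY9 (CD229) and CD48 are relatives of SLAMF7, CD47 and CD46 protect cells from phagocytosis and complement, and CD86 binds CD28. These libraries hold RNA only, so the amount of each protein on the surface is not analysed here. The paper that reported these data also followed BCMA by RT-qPCR and, on the cell surface, by flow cytometry. It states that PRKCN knockdown reduced BCMA in myeloma cell lines, and that PRKCN overexpression had the opposite effect. The paper counts BCMA among the targets downstream of the transcription factor IRF4. It reports that added IRF4 counteracted the fall of BCMA in MM.1S cells with inducible PRKCN knockdown. Those experiments are not analysed here.

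Library totals ran from 35625564 to 37730003 counts, and the totals of the groups overlapped. PRKD3 itself had 44913 to 47712 counts with shNT and 18253 to 19998 with shPRKCN, a fall to 41.0% of the control level (log2 fold change -1.29, SE 0.034), so every library matched its label. The antigen genes SDC1, TNFRSF17, CD38 and SLAMF7 are themselves plasma cell markers, and with PRDM1, XBP1, IRF4, JCHAIN, MZB1 and POU2AF1 the 10 markers summed to 9734 to 9851 CPM (counts scaled to the size of each library, with TMM) in shNT and 8353 to 8448 CPM in shPRKCN libraries. Of these 10 markers 4 were called lower by the limits given below (TNFRSF17, SLAMF7, XBP1 and IRF4), as were 10.6% of all tested genes, and 0 higher, 7 were lower and 1 higher by the adjusted p alone, and their median log2 fold change was -0.44. Of other cell types, the T cell genes CD3D and CD3G, the myeloid gene LYZ and the B cell genes PAX5 and CD22 had at most 3 counts in every library. Of 8 T and NK cell markers, 7 were listed and summed to 17.8 to 19.0 CPM in shNT and 28.6 to 32.4 CPM in shPRKCN libraries, but of the 4 tested 2 were called lower and 1 higher, with a median log2 fold change of -0.88. Of 7 stromal and epithelial markers, 6 were listed and summed to 330 to 354 and 99.4 to 103 CPM, and of the 5 tested 2 were called lower and 0 higher. Among all tested genes, 10.6% were called lower and 6.15% higher, and 27.8% and 26.5% were lower and higher by the adjusted p alone. The genes with the most counts in these lists, named after their values were seen, were CD3E, which was called higher (log2 fold change 1.40), and VIM, which was called lower (-1.77). Their part in the antigen results was not tested.

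A gene was called where edgeR's quasi-likelihood test gave a Benjamini-Hochberg adjusted p under 0.05 and the log2 fold change of shPRKCN against shNT was beyond 0.58 in either direction. By these limits 3 of the 10 antigen genes fell, TNFRSF17, GPRC5D and SLAMF7, beside 10.6% of all tested genes called lower. The only antigen gene called higher was CD86, beside 6.15% of all tested genes. SDC1 and CD46 had a small higher value that passed the adjusted p but not the fold limit, so by the adjusted p alone 3 antigen genes were lower and 3 higher, where 27.8% and 26.5% of all genes were. The 4 others, CD38, LY9, CD48 and CD47, passed neither limit. The libraries of the groups did not overlap in CPM for 6 of the 10 genes, as for 58.8% of all tested genes. The median log2 fold change over the 10 antigen genes was -0.04, against 0.0012 over all genes tested, so the 10 genes had no common direction. In bulk RNA, fewer cells with a transcript and less of it per cell cannot be told apart.

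**Figure D1:**
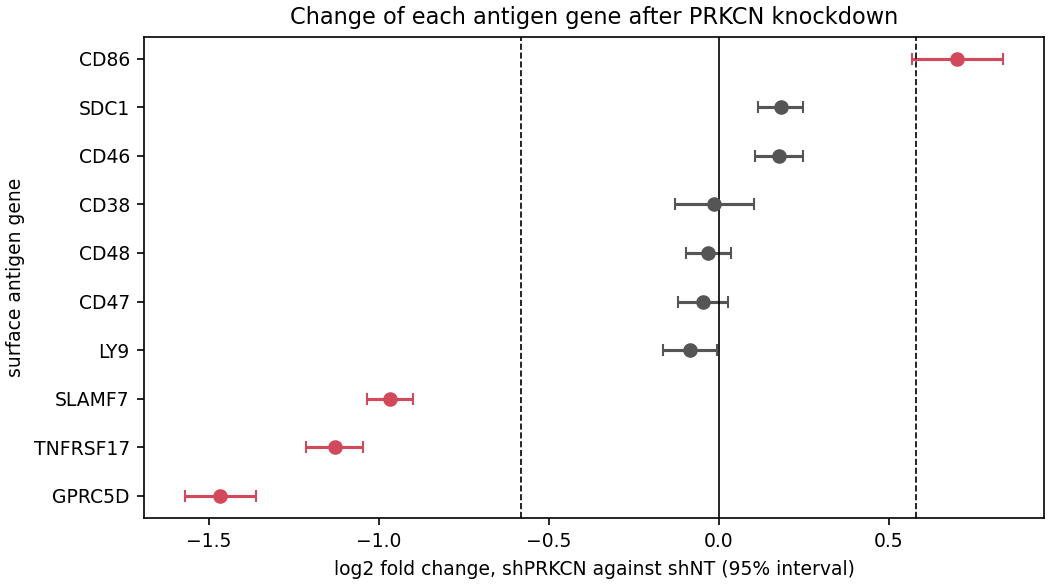
Log2 fold change of each antigen gene (x axis, shPRKCN against shNT, with its 95% interval), ordered by value, with red for called genes and dashed lines at the fold limit of 0.58 in each direction. GPRC5D, TNFRSF17 and SLAMF7 lie beyond the lower line, the interval of CD86 crosses the upper line at its lower end, and the other 6 lie between the lines.

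TNFRSF17 codes for BCMA, a receptor for the survival factors BAFF and APRIL on plasma cells. The gene (gene ID 608) lies on the plus strand of chromosome 16 at chr16:11965210-11968068 (GRCh38). The shNT libraries held 4945, 4914 and 5199 counts and the shPRKCN libraries 2379, 2393 and 2298. Every shPRKCN library was below every shNT library. The level fell from 138 ± 3.40 to 62.9 ± 2.06 CPM (SD, n = 3 each), to 45.7% of the control, a log2 fold change of -1.13 (SE 0.042, 95% interval -1.21 to -1.05). The adjusted p of edgeR's quasi-likelihood test was 1.3e-34. All 2859 bases of TNFRSF17 lie inside the span of NPIPB2, a gene of a family with near-identical copies, on the opposite strand. NPIPB2, chosen after its values were seen, also had fewer counts in shPRKCN cells (597 to 645 against 316 to 396), with a log2 fold change of -0.84. Whether the counting used the strand is not given in the sources used here, so reads of this pair cannot be told apart, although TNFRSF17 had several times the counts of NPIPB2 in every library.

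GPRC5D is an orphan receptor of the G protein-coupled class with high levels in plasma cells. It lies on the minus strand at chr12:12940575-12952170 (gene ID 55507). Its counts were 2659, 2714 and 2815 with shNT and 1056, 1007 and 983 with shPRKCN. The groups were far apart, and the spread within each was small. The mean level went from 74.8 ± 0.826 to 27.1 ± 1.20 CPM (SD, n = 3 each), leaving 36.2% of the control, which was the deepest fall among the 10 antigen genes in this fit (log2 fold change -1.47, SE 0.052, 95% interval -1.57 to -1.36). The adjusted p by edgeR's quasi-likelihood test was 6.0e-36. Its antisense neighbour GPRC5D-AS1 had at most 4 counts in any library.

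SLAMF7 (CS1) codes for a receptor of the signaling lymphocytic activation molecule (SLAM) family that is abundant on plasma cells and natural killer cells. The gene (gene ID 57823) is on the plus strand at chr1:160739057-160754821. Counts of 15158, 15669 and 15815 with shNT stood against 8155, 8033 and 8346 with shPRKCN. No shPRKCN library came near the lowest shNT library. The level dropped from 426 ± 3.42 to 218 ± 1.87 CPM (SD, n = 3 each), to 51.2% of the control (log2 fold change -0.97, SE 0.034, 95% interval -1.03 to -0.90, adjusted p 4.7e-36 by edgeR's quasi-likelihood test).

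CD86 codes for a costimulatory ligand best known from antigen-presenting cells and also present on myeloma cells. It is on the plus strand at chr3:122055362-122121136 (gene ID 942). The shNT libraries had 630, 631 and 659 counts and the shPRKCN libraries 1068, 1082 and 1059. All shPRKCN libraries were above all shNT libraries. The level rose from 17.5 ± 0.344 to 28.5 ± 0.612 CPM (SD, n = 3 each), to 163% of the control (log2 fold change 0.70, SE 0.067, 95% interval 0.57 to 0.84, adjusted p 1.7e-14 by edgeR's quasi-likelihood test). Since the interval reaches below 0.58, the call was lost when the test was run against that limit itself (edgeR's glmTreat, adjusted p 0.103). ILDR1 overlaps 6294 bases (9.57%) of the CD86 span, and its counts, chosen after they were seen, overlapped between the groups (717 to 779 in shNT and 726 to 870 in shPRKCN libraries).

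Markers of cells that also carry CD86 were compared beside it. The 8 B cell markers, of which 6 were listed and 3 tested, summed to 26.4 to 28.7 CPM in shNT and 58.5 to 62.7 CPM in shPRKCN libraries, and CR2, the complement receptor, made up most of that sum (883 to 935 against 2118 to 2271 counts). CR2 was the only one of the 3 called, and their median log2 fold change was -0.28. The 7 myeloid markers, of which 5 were listed and 2 tested, summed to 15.7 to 19.1 CPM in shNT and 10.5 to 13.2 CPM in shPRKCN libraries, with 1 called lower and 0 higher. By the same limits 10.6% of all tested genes were called lower and 6.15% higher. CD22 and PAX5 of the B cell list and LYZ of the myeloid list had at most 3 counts in every library. The part of these markers in the CD86 result was not tested.

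SDC1 carries the heparan sulfate chains that bind growth factors on plasma cells. Located on the minus strand at chr2:20200797-20225475 (gene ID 6382), it had 32065, 32030 and 34038 counts with shNT and 37721, 39099 and 37547 with shPRKCN. The groups did not overlap, but the difference was small beside those above. The means were 896 ± 21.6 and 1017 ± 32.0 CPM (SD, n = 3 each), with a log2 fold change of 0.18 (SE 0.033, 95% interval 0.12 to 0.25). Its adjusted p was 2.1e-06 by edgeR's quasi-likelihood test.

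CD46, a membrane cofactor that shields cells from complement, is on the plus strand at chr1:207752038-207795516 (gene ID 4179). It gave a value of like size to SDC1. It had 8128, 8976 and 8750 counts with shNT and 10048, 9695 and 10282 with shPRKCN, again without overlap. Its level was 236 ± 7.25 CPM in shNT and 267 ± 5.34 CPM in shPRKCN cells (SD, n = 3 each), with a log2 fold change of 0.18 (SE 0.035, 95% interval 0.11 to 0.25, adjusted p 1.5e-05 by edgeR's quasi-likelihood test). Both genes were at 113% of the control.

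CD38, an ectoenzyme that uses NAD and is the target of daratumumab, is on the plus strand at chr4:15778328-15853232 (gene ID 952). Its libraries had 1322, 1424 and 1242 counts with shNT and 1311, 1320 and 1434 with shPRKCN. The values of the groups were interleaved. The means of 36.4 ± 2.91 and 36.1 ± 1.43 CPM (SD, n = 3 each) gave a log2 fold change of -0.01 with a 95% interval from -0.13 to 0.10, which leaves out a fall of the size seen for TNFRSF17, GPRC5D or SLAMF7. Its adjusted p was 0.875 by edgeR's quasi-likelihood test, and its sign turned with the scaling.

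LY9, a SLAM receptor that binds itself on neighbouring cells, is on the plus strand at chr1:160796174-160828255 (gene ID 4063). Counts were 5610, 6095 and 5998 with shNT and 5469, 6116 and 5555 with shPRKCN. In CPM (159, 166 and 160 with shNT, 146, 164 and 146 with shPRKCN), the second shPRKCN library lay among the shNT libraries, and the other two lay below them. The log2 fold change was -0.08 (SE 0.040, adjusted p 0.065 by edgeR's quasi-likelihood test). Without the second shPRKCN library it was -0.14 with an adjusted p of 0.0014, which was still far inside the fold limit.

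CD48, a ligand on the surface of most blood cells that is anchored by a glycolipid, is on the minus strand at chr1:160678746-160711822 (gene ID 962). Its counts of 14491, 14542 and 15091 with shNT and 14768, 14744 and 14864 with shPRKCN lay in the same range. The log2 fold change was -0.03 (95% interval -0.10 to 0.04, adjusted p 0.452 by edgeR's quasi-likelihood test).

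CD47, the signal against phagocytosis that macrophages read through SIRPα, is on the minus strand at chr3:108043091-108091031 (gene ID 961). It had 6166, 6357 and 6272 counts with shNT and 6269, 6021 and 6408 with shPRKCN, again with overlap. The log2 fold change was -0.05 (95% interval -0.12 to 0.03, adjusted p 0.291 by edgeR's quasi-likelihood test). For any single gene, the exact permutation test on 3 libraries against 3 cannot go below a two-sided p of 0.10, and it gave 0.10 for the 6 genes whose groups did not overlap and 0.20 to 1 for the other 4.

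To compare levels between genes, the deposited FPKM were used, which are scaled for gene length and library size. In shNT cells the order of mean FPKM was SDC1 (240 ± 5.39), CD48 (202 ± 3.37), TNFRSF17 (153 ± 3.51), SLAMF7 (141 ± 1.10), CD46 (69.1 ± 2.25), LY9 (37.9 ± 0.928), GPRC5D (18.2 ± 0.169), CD47 (16.8 ± 0.363), CD38 (6.44 ± 0.519) and CD86 (5.84 ± 0.104; SD, n = 3 each). Only CD38 and CD86, at the lower end, had overlapping libraries among neighbours in that order. In shPRKCN cells SDC1 (276 ± 5.88) and CD48 (201 ± 1.50) still led. CD46 (79.2 ± 2.42) came next, ahead of SLAMF7 (73.2 ± 1.39) and TNFRSF17 (71.0 ± 1.90), whose libraries overlapped each other. GPRC5D (6.68 ± 0.300) stood below CD86 (9.63 ± 0.130) and overlapped CD38 (6.47 ± 0.294). LY9 (36.2 ± 2.09) and CD47 (16.5 ± 0.540) stayed in the middle.

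Among all listed genes, ordered by mean FPKM from the highest, TNFRSF17 went from place 303 to 684, SLAMF7 from 325 to 655 and GPRC5D from 2870 to 5923. CD86 moved the other way, from 6371 to 4723. The summed FPKM of the 10 antigen genes was 891 ± 8.68 in shNT and 776 ± 5.36 in shPRKCN cells (SD, n = 3 each), with no overlap of the libraries. Of that sum, TNFRSF17 made up 17.2% in shNT and 9.15% in shPRKCN cells, and SLAMF7 made up 15.8% and 9.43%. SDC1 made up 27.0% in shNT and 35.6% in shPRKCN cells.

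Ratios taken within a library do not depend on how the libraries are scaled to each other. The FPKM ratio of SLAMF7 to CD48 was 0.689, 0.710 and 0.690 with shNT and 0.364, 0.359 and 0.370 with shPRKCN, a difference of -0.94 on the log2 scale (SE 0.019). The ratio of SLAMF7 to LY9 went from 3.72 ± 0.0927 to 2.03 ± 0.150. The ratio of TNFRSF17 to SDC1 was 0.638 ± 0.0031 and 0.257 ± 0.0045, and TNFRSF17 was lower relative to SDC1 after knockdown (log2 difference -1.31, SE 0.015). GPRC5D to SDC1 had a log2 difference of -1.65 (SE 0.038). TNFRSF17 and GPRC5D did not fall equally, since their ratio was 8.52, 8.29 and 8.46 in shNT and 10.3, 10.9 and 10.7 in shPRKCN libraries (log2 difference 0.34, SE 0.026). The libraries of the groups were apart in each of these ratios, with an exact two-sided permutation p of 0.10, the smallest this design allows.

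SLAMF7, LY9 and CD48 sit beside each other in the SLAM gene cluster of chromosome 1, so the cluster shows how far the change of SLAMF7 was shared by its neighbours. The cluster runs from SLAMF6 to CD244 over 378 kb (chr1:160485036-160862887). CD48 ends 27235 bases before SLAMF7 starts, and LY9 starts 41353 bases after SLAMF7 ends. Between these neighbours, SLAMF7 had a log2 fold change of -0.97 and CD48 and LY9 had -0.03 and -0.08. SLAMF6, at 1308 to 1399 counts, had -0.06 (adjusted p 0.408 by edgeR's quasi-likelihood test). CD84 and CD244 had at most 2 counts and SLAMF1 5 to 8, too few to be tested. Outside the cluster, the nearby tested genes COPA (-0.03), F11R (-0.01), TSTD1 (0.08) and USF1 (0.07) passed neither limit. NHLH1 had 9 to 39 counts and a value of 0.39 with an SE of 0.427. NCSTN, a subunit of γ-secretase, had 0.47 and passed the adjusted p alone (8.7e-18). The difference of SLAMF7 from CD48 within each library is the ratio given above.

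Promoter sequence was read for antigen genes that differed in response, as 250 bases before to 50 bases after the gene start in RefSeq (GRCh38.p14). RefSeq entries were matched for 7 of the 10 antigen genes, with 10 entries, and TNFRSF17, SLAMF7 and LY9 had none in the table used. Since the transcription factor IRF4 had 22388 to 23118 counts with shNT and 6438 to 6585 with shPRKCN (log2 fold change -1.85, SE 0.035), 2 motifs that interferon regulatory factors are known to bind were searched on both strands. They were the core of the interferon-stimulated response element, the letters GAAA, 2 bases of any kind and GAAA, found in 3.57% of 35116 promoters of this length, and the ETS-IRF composite element, the letters GGAA, 2 bases of any kind and GAAA, found in 2.82%, and the last 4 letters of the motifs are the same. The promoters of the gene with the deepest fall, GPRC5D, of the gene called higher, CD86, with 2 starts, and of CD38, whose groups were interleaved, are shown 5′ to 3′ on the strand of the gene, with a motif match in capitals.
GPRC5D (minus strand, chr12:12952121-12952420): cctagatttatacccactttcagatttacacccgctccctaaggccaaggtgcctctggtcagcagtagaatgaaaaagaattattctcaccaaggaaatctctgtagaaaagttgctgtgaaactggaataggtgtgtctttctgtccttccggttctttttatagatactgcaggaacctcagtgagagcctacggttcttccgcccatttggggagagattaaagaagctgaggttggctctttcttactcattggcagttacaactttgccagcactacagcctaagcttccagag
CD86, first start (plus strand, chr3:122055112-122055411): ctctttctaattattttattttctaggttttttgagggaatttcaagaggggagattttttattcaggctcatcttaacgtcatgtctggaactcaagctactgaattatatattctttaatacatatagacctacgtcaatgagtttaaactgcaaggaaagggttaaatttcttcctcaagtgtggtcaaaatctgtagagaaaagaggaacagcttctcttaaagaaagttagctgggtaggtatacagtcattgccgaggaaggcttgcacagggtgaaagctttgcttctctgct
CD86, second start (plus strand, chr3:122077534-122077833): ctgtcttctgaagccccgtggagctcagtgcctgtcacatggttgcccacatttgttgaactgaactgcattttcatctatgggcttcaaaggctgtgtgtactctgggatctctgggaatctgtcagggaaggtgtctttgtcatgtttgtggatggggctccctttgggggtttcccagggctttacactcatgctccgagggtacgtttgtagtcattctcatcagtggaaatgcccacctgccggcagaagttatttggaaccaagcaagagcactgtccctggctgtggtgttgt
CD38 (plus strand, chr4:15778078-15778377): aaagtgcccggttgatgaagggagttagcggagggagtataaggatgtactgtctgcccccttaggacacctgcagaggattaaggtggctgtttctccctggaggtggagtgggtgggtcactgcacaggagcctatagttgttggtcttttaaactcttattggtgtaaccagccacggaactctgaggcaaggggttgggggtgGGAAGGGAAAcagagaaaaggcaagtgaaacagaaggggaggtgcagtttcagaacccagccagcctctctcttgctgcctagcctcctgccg
Only the CD38 promoter held a match, 1 composite element whose first base lies 43 bases before the gene start (at -43). The promoters of GPRC5D, CD86, SDC1, CD48, CD47 and CD46 held neither set of letters in this window. The match is a description of the letters and not a bound site, and CD38 did not pass either limit in the comparison. The promoters of TNFRSF17 and SLAMF7 could not be read, and the part of IRF4 in the antigen results was not tested.

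The ligands, partners, modifying enzymes and other surface targets around the 10 antigens were taken from 10 lists with 133 genes in all. Of these, 129 were listed in the count table and 102 were tested. By both limits 10 of the 102 were called lower and 14 higher, beside 10.6% and 6.15% of all tested genes. Their median log2 fold change was -0.04. By the adjusted p alone 31 were lower and 32 higher, beside 27.8% and 26.5% of all tested genes, and 39 passed neither way. When the test was run against the fold limit itself (edgeR's glmTreat), PSEN2, INPP5D, ENPP1, SDC4, HS6ST2, THBS1, CD274, LGALS9 and ICAM1 lost the calls given for them here.

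Around BCMA, 15 genes for its ligands, sister receptors, TRAF adaptors and the γ-secretase that sheds it from the cell surface were all tested. By both limits 1 was called, beside 16.7% of all tested genes called either way. PSEN2, a catalytic subunit of γ-secretase, rose from 33.4 ± 0.460 to 52.3 ± 0.111 CPM (SD, n = 3 each; log2 fold change 0.64, SE 0.052). NCSTN (0.47) and APH1A (0.25), subunits of the same protease, passed the adjusted p alone in the same direction. TNFRSF13B, the related receptor TACI, had 190 ± 10.9 CPM in shNT and 141 ± 2.08 CPM in shPRKCN cells (log2 fold change -0.44), so it was also lower but by less than TNFRSF17. The FPKM ratio of TNFRSF17 to TNFRSF13B was 1.23, 1.08 and 1.09 in shNT and 0.720, 0.711 and 0.665 in shPRKCN libraries (log2 difference -0.70, SE 0.070, exact two-sided permutation p 0.10).

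Of 12 SLAM receptors and adaptors other than the antigens, 5 were tested and 1 was called, beside 16.7% of all tested genes. INPP5D, the lipid phosphatase SHIP1, rose (log2 fold change 0.61, SE 0.040). PTPN6, the phosphatase SHP-1, passed the adjusted p alone at -0.34, and PTPN11 had -0.03. The adaptor SH2D1A and the receptors CD84, CD244 and SLAMF8 had at most 3 counts in every library, and SLAMF9 was not listed. Of the 3 relatives of GPRC5D, only GPRC5B was tested, with 17 to 24 counts with shNT and 9 to 14 with shPRKCN (log2 fold change -0.94, adjusted p 0.071 by edgeR's quasi-likelihood test).

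CD38 stands in a group of 15 genes for NAD and adenosine turnover, of which 11 were tested, 1 was lower and 2 higher. Beside these stand 10.6% and 6.15% of all tested genes. PECAM1 (CD31), the binding partner of CD38, fell from a range of 739 to 824 counts to 335 to 338 (log2 fold change -1.24, SE 0.086). NT5E (CD73), which makes adenosine, rose from 408 to 460 counts to 786 to 890 (0.90, SE 0.079). ENPP1, which acts between CD38 and NT5E in the same route, rose by 0.74 (SE 0.117). RARA, the retinoic acid receptor known to control CD38, passed the adjusted p alone at -0.29, and NAMPT did so at -0.11. ADA had 0.02, and its sign turned without the second shPRKCN library.

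For SDC1, 26 genes for other syndecans and for the making, trimming and shedding of heparan sulfate were listed and 25 tested. By both limits 4 were lower and none higher, beside 10.6% and 6.15% of all tested genes. HPSE, the enzyme that cuts heparan sulfate and promotes shedding of SDC1, fell from 720 to 800 counts to 336 to 470 (log2 fold change -0.95, SE 0.089). SULF1, which removes sulfate from the chains outside the cell, fell from 7033 to 7543 counts to 4295 to 4496 (-0.76, SE 0.038), and SDC4 fell by 0.78 (SE 0.179) on the log2 scale. HS6ST2 had 19 to 22 counts with shNT and 7 to 13 with shPRKCN, and its call (adjusted p 0.025 by edgeR's quasi-likelihood test) was lost by DESeq2, without the filter, and without any 1 of 5 libraries, that is, each but the first shPRKCN library. SULF2 (-0.08, adjusted p 0.036) was inside the fold limit, and ADAM10 (-0.01), a sheddase, and B3GAT3 (-0.04) passed neither limit, with signs that turned in some settings.

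Of 8 genes for the binding partners and signals of CD47, 6 were tested, with 1 lower and 1 higher. Over all tested genes the shares were 10.6% and 6.15%. LRP1, the receptor that reads the phagocytosis signal of calreticulin, fell from 127 to 136 counts to 42 to 54 (log2 fold change -1.53, SE 0.214). THBS1, a soluble ligand of CD47, rose from 14 to 27 counts to 43 to 48 (1.16, SE 0.359). CALR, calreticulin itself, passed the adjusted p alone at -0.31. QPCTL, the enzyme that modifies CD47 so that SIRPα can bind, also passed the adjusted p alone (-0.40), while its relative QPCT did not pass (-0.07, adjusted p 0.087).

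Among the other regulators of complement, CR2 rose from 25.1 ± 1.27 to 58.6 ± 2.23 CPM (SD, n = 3 each; log2 fold change 1.23, SE 0.055). CR1 had 0 to 5 counts with shNT and 14 to 15 with shPRKCN and was called, with no reliable fold at such counts. The anchored inhibitors that act beside CD46 passed the adjusted p alone in opposite directions, CD55 at 0.27 and CD59 at -0.24.

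CD86 belongs with 19 genes for costimulation and immune checkpoints, of which 15 were tested, with 2 lower and 2 higher. Over all tested genes the shares were 10.6% lower and 6.15% higher. CD28, the receptor of CD86, which myeloma cells themselves carry, had 14017 to 15157 counts over all 6 libraries and a log2 fold change of -0.0015 (SE 0.033), with a sign that turned in other settings. The FPKM ratio of CD86 to CD28 was 0.0857, 0.0803 and 0.0868 in shNT and 0.137, 0.141 and 0.133 in shPRKCN libraries, so CD86 stayed well below its receptor in transcript level (log2 difference 0.70, SE 0.043, exact two-sided permutation p 0.10). ICAM1 rose from 1387 to 1590 counts to 2289 to 2544 (0.68, SE 0.052), and LGALS9 rose by 0.93 (SE 0.254). TNFSF9, the ligand of 4-1BB, fell by 0.96 on the log2 scale (SE 0.162). CD274 (PD-L1) had 54 to 81 counts with shNT and 36 to 53 with shPRKCN and was called lower (-0.68, adjusted p 0.023 by edgeR's quasi-likelihood test), but the call was lost without the second or the third library of either group (adjusted p 0.052 to 0.107). CD276 passed the adjusted p alone at 0.37, and VSIR had -0.13.

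Of 23 further genes proposed as surface targets in myeloma, 16 were tested, with 2 lower and 3 higher. Beside these stand 10.6% and 6.15% of all tested genes. NCAM1 (CD56) fell from 225 to 247 counts to 28 to 36 (log2 fold change -2.87, SE 0.191), and LILRB4 fell by 0.97 (SE 0.087). FCRL5, a target of bispecific antibodies in myeloma, rose from 31 to 39 counts to 92 to 106 (1.48, SE 0.249). CD79B, a subunit of the B cell receptor, rose by 0.72 (SE 0.063). CD180, a relative of Toll-like receptors on B cells, rose from 2 to 9 counts to 93 to 99. ITGB7, the most abundant of them, was inside the fold limit (0.19), as were CD74 (-0.41) and SEMA4A (-0.08). Of 6 ligands of natural killer cell receptors, 3 were tested. ULBP3 rose from 38 to 65 counts to 146 to 164 (1.48, SE 0.202), while MICB (-0.01) and MICA (-0.34, adjusted p 0.054) did not pass the adjusted p by edgeR's quasi-likelihood test.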

How the data were processed

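The authors deposited raw counts per gene for 6 libraries of total RNA and FPKM values of the same genes. For the 15675 genes with a count in every library, the deposited FPKM follow from the counts, the library totals and 1 length per gene within 0.1%. The submitters' processing notes name FastQC, HISAT2, StringTie and GRCh38.p14. Versions, the counting program, the annotation and the strand setting are not given in the sources used here. Groups came from the labels. Of the gene names, 20688 are RefSeq symbols and 242 RefSeq synonyms. Gene spans are from RefSeq (GRCh38.p14) and strands from GENCODE 29.

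Counts were scaled by TMM, filtered with filterByExpr and fitted with edgeR 4.0.16 (R 4.3.3), and p-values were adjusted over all 13971 genes. Standard errors were derived from the F statistic and the fold change. Within groups the libraries differed by more than counting noise (chi-square per degree of freedom 3.38 to 4.80, against 63.8 to 70.2 between groups). None was therefore a copy of another, but this spread does not show whether libraries came from separate cultures. Alternatives were DESeq2 1.42.0, other scalings, filters and fold limits, limma 3.58.1 on FPKM (log2 after a pseudocount of 1 or 0.1), a replicate block and leaving out each library. The main edgeR fit, DESeq2 and limma (there on log2 CPM) were tested on simulated data, and the other alternatives were not. FPKM ratios were tested exactly with scipy 1.17.1 (Python 3.11.15).

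Named genes are the 10 antigen genes, PRKD3, IRF4, in each list the genes past both limits and the 3 others with the highest mean FPKM, and the genes beside the SLAM cluster. The antigens and lists were chosen with earlier results of these data known. A gene that this rule would name is not reported here.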

Additional observations from a re-analysis of the deposited data

How the results depend on the processing

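Every alternative kept 3 antigen genes lower. The number called higher was 1 except for 3 with no fold limit, when SDC1 (0.18) and CD46 (0.18) joined CD86, and 0 with glmTreat against 0.58, when CD86 (0.70) was lost. Over all genes, 1475 were lower and 859 higher; these were 3877 and 3700 with no fold limit, 821 and 339 with glmTreat, 648 and 315 by limma on log2(FPKM + 1), and 635 and 310 by the same with an FPKM of at least 1 in 3 libraries. Of the genes around the antigens, 10 lower and 14 higher became 31 and 32 with no fold limit, 6 and 7 by limma on log2(FPKM + 1), and 5 and 7 by the same with the FPKM minimum, and glmTreat left 8 higher. The pseudocount shrinks the fold of low genes by construction, and the other causes were not tested. CD38, which passed no limit, turned to 0.00722 with library sizes alone and to 0.00754, 0.00885 and 0.00754 by limma with a pseudocount of 1, of 0.1, and of 1 with the FPKM minimum. In the same 4 settings ADAM10 turned to 0.00979, 0.00826, 0.00852 and 0.00826, MICB to 0.00639, 0.00575, 0.00597 and 0.00575, F11R to 0.00495, 0.00468, 0.00477 and 0.00468, and CD28 to 0.0181, 0.0180, 0.0182 and 0.0180. CD28 also turned to 0.00243 with DESeq2, 0.00095 with RLE, 0.00654 with upper-quartile scaling and 0.00472 without the filter. None of these genes was called. With each library left out in turn, values ran from -1.15 to -1.10 for TNFRSF17, -1.50 to -1.43 for GPRC5D, -0.97 to -0.96 for SLAMF7, -0.076 to 0.039 for CD38, 0.16 to 0.21 for SDC1 and for CD46, -0.14 to -0.05 for LY9, -0.04 to -0.02 for CD48, -0.06 to -0.03 for CD47 and 0.69 to 0.73 for CD86. Over these fits 8 to 13 genes around the antigens were lower and 14 to 16 higher, and 1437 to 1487 of all genes were lower and 815 to 874 higher. Signs turned for ADA (-0.0061 to 0.049), ADAM10 (-0.040 to 0.032), B3GAT3 (-0.071 to 0.0093), CD28 (-0.020 to 0.023), MICB (-0.036 to 0.015), NHLH1 (-0.10 to 0.86) and F11R (-0.040 to 0.015). Same-numbered libraries of the groups did not deviate together (correlations -0.063, -0.030 and -0.028). Whether they shared a preparation is not given in the labels, and such values cannot decide it. With the replicate number as a block, 1463 genes were lower and 854 higher, with 3 antigen genes lower and 1 higher and no antigen call changed. Depth was not the limit for the antigens, the lowest of which had 630 counts, but genes under about 50 counts, such as HS6ST2, GPRC5B, CR1 and THBS1, have wide intervals.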
